A study of Tupaia belangeri with 6 samples.

Results

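The HNRNP, SRSF and RBM genes code for RNA-binding proteins, many of them regulators of pre-mRNA splicing, and their levels were measured in the prefrontal cortex (PFC) of the tree shrew, Tupaia belangeri, a small mammal close to the primates. Members were chosen by name alone. A locus was a member where its gene name was HNRNP followed by letters or digits, SRSF followed by a number, or RBM followed by a number and at most 1 letter, which left out the loci whose name carries a "li" suffix. This gave 53 members among the 95863 loci of the gene tables, 17 of them HNRNP, 6 SRSF and 30 RBM. The members lie on 23 chromosomes or contigs of the genome build TS_3.0, and 2 of them, RBM10 and RBM41, lie on the X chromosome.

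RNA with poly(A) tails from 6 adult animals was sequenced, 1 library for each of 3 females (numbered 1, 3 and 4) and 3 males (numbered 1, 4 and 5). The labels give no treatment, and the animals differ in the labels only by sex. The study's sample table lists every male at a higher age than every female, so sex and age cannot be told apart in any comparison below. The values are TPM (transcript abundance), which are scaled to transcript length and to the library. Levels of different genes were compared on this scale, and their order can turn by mean read coverage, which is also per length.

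Proteins of the HNRNP families coat nascent RNA, and many of them repress the use of the exons near which they bind. SRSF proteins carry a domain rich in arginine and serine, which kinases phosphorylate, and they often favour exon inclusion. RBM genes are named for holding an RNA recognition motif and are no single family by function. They include spliceosome subunits, regulators of alternative exons such as RBM10, RBM5 and RBM6, and proteins of RNA decay, ribosome synthesis or germ cells. Neurons splice many exons that other tissues do not, and RNA-binding proteins of these kinds are abundant in brain.

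The libraries held the markers of cortex. Of the 5 pan-neuronal markers checked, 4 were found, and their summed TPM ran from 4863 to 7052. The excitatory neuron markers, 2 of 3 found, summed to 1877 to 3786 TPM. The 5 astrocyte markers summed to 1404 to 2184 TPM and the 5 microglia markers to 107.5 to 174 TPM, whereas the choroid plexus markers, 2 of 3 found, summed to at most 9.98 TPM. Of the blood markers, 3 of 5 were found, and limma called 2 of them, the globin genes HBQ1 and HBG, as higher in the females. None of the 3 was at 0 in all animals, and they summed to 1275 to 2542 TPM in the females and to 62.7 to 101.2 TPM in the males. Of the oligodendrocyte markers, 3 of 5 were found, none at 0 in all animals, and 0 were called (smallest adjusted p 0.782 by limma, 2 with an unadjusted p under 0.05). Their sum was 348 to 482 TPM in the females and 80.7 to 236 TPM in the males and was mostly MAG (247 to 345.5 against 63.4 to 146 TPM), whereas MOG and MBP overlapped between the sexes. The oligodendrocyte precursor markers, 2 of 3 found and 0 called, summed to 67.5 to 90.8 TPM in the females and 33.9 to 66.0 TPM in the males. Of these, OLIG2 was higher in every female and PDGFRA overlapped. The 4 endothelium markers, 0 called, overlapped in their sum (352 to 420.5 against 311 to 468 TPM). CLDN5 and FLT1 were higher in every female, whereas VWF and PECAM1 overlapped. In such bulk samples, fewer cells of a type and less RNA per cell cannot be told apart. Loci to which no strand was assigned took 2.30% to 3.33% of the TPM in the females and in male 4, against 5.16% in male 1 and 7.88% in male 5. TPM keeps no depth, but the tables also give the mean read coverage of a locus, and its median over the members that passed the filter was 19.8 to 27.1 in the 6 libraries.

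Of the 53 members, 42 passed the filter used for all loci (at least 0.1 TPM in 3 or more animals), 10 of the HNRNP, 5 of the SRSF and 27 of the RBM genes. Their median level, as a mean over the animals, was 97.3 TPM for HNRNP, 104 TPM for SRSF and 14.6 TPM for RBM, beside 2.42 TPM over the 30238 loci tested, many of them unnamed, and 13.9 TPM over the 13407 tested loci that have a gene name and a strand. The HNRNP and SRSF medians thus lay well above the named genes, and the RBM median close to them. Means above 100 TPM were reached by 10 members, beside 11.5% of the named genes, of which 5 were HNRNP, 3 SRSF and 2 RBM genes. A further 21 had 10 to 100 TPM, 9 had 1 to 10 TPM, and 2 had less than 1 TPM.

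**Figure D1:**
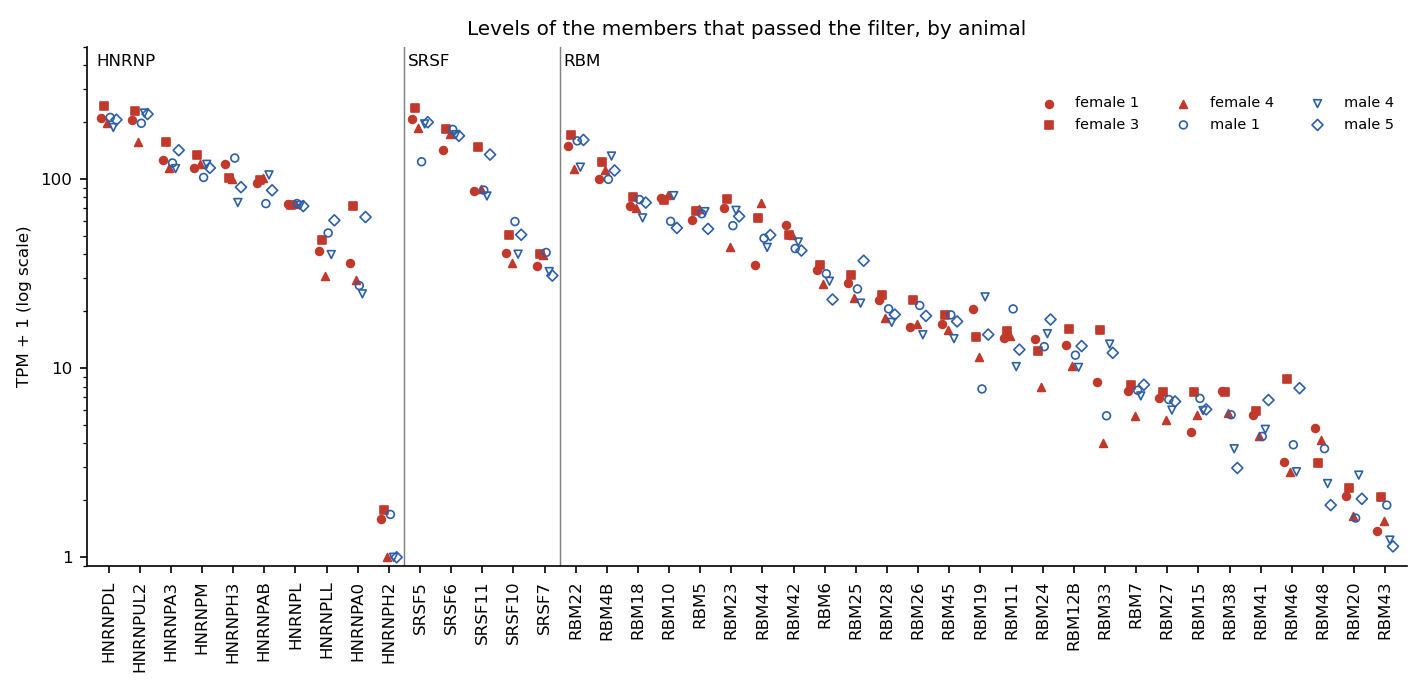
TPM + 1 (log scale) of the 42 members that passed the filter, ordered by mean level within the HNRNP, SRSF and RBM families. Each symbol is 1 animal, filled red for females and open blue for males. All HNRNP and SRSF genes shown but HNRNPH2 lie above 10 TPM, while the RBM genes run from above 100 TPM down to RBM43 with a mean of 0.548 TPM.

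Summed over a family, the level varied little between animals. The 17 HNRNP members added up to 1017, 1149 and 916 TPM in females 1, 3 and 4, and to 982, 954 and 1049 TPM in males 1, 4 and 5. The 6 SRSF members gave 509, 656 and 519 TPM in the females and 490, 517 and 581 TPM in the males. For the 30 RBM members the sums were 829, 945 and 779 TPM in the females and 804, 799 and 817 TPM in the males. Within each family the ranges of the sexes overlapped, and female 3 had the highest sum. The mean over the 6 animals was 1011 ± 82.2 TPM (SD, n = 6) for HNRNP, 545 ± 62.2 TPM for SRSF and 829 ± 59.3 TPM for RBM, a coefficient of variation of 7.16% to 11.4%. All members together took 0.229% to 0.285% of a library's TPM.

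Among the HNRNP genes, HNRNPDL and HNRNPUL2 had the highest TPM. HNRNPDL, the relative of the AU-rich element binding protein HNRNPD (chromosome 20, 7906781 to 7984134, minus strand), had 210.0, 242.5 and 196 TPM in the females and 211, 187 and 205 TPM in the males. HNRNPUL2, a relative of the nuclear scaffold protein HNRNPU (chromosome 17, 56268999 to 56284412, plus strand), had 204, 228 and 156 TPM in the females and 197, 223 and 219.9 TPM in the males. By TPM these neighbours in the order did not differ beyond their spread, as HNRNPDL was the higher in 4 of 6 libraries. By coverage, HNRNPUL2 (237 to 286) lay 5.10 to 7.52 times above HNRNPDL (35.05 to 46.6) in the 6 libraries. HNRNPA3 followed with a mean of 128 TPM, 1.59-fold below HNRNPUL2 and lower than it in all 6 libraries, but by coverage both HNRNPA3 and HNRNPM exceeded HNRNPDL in all 6. HNRNPM (117 TPM) and HNRNPH3, a member of the group that binds runs of G (102 TPM), came next, and each pair of neighbours among these changed order in 2 of 6 libraries by TPM, while by coverage HNRNPM exceeded both HNRNPA3 and HNRNPH3 in all 6. HNRNPAB, HNRNPL, HNRNPLL and HNRNPA0 had means of 92.8, 72.3, 44.5 and 41.2 TPM. By coverage, HNRNPL exceeded HNRNPH3 and HNRNPA0 exceeded HNRNPLL in all 6 libraries. The remaining HNRNP gene that passed, HNRNPH2, had a mean of 0.340 TPM and was listed at 0 in female 4 and in males 4 and 5.

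The SRSF genes that passed were SRSF5, SRSF6, SRSF11, SRSF10 and SRSF7. SRSF5 (chromosome 4, 31959491 to 32082666, plus strand) had 208, 237 and 184 TPM in the females and 123, 195 and 199 TPM in the males, so that male 1 stood below the other animals. SRSF6, an enhancer-binding SR protein (chromosome 9, 64446401 to 64460693, minus strand), had 142, 182 and 173 TPM in the females and 182, 171 and 169 TPM in the males. The order of these members changed with the library and the unit, SRSF5 being the higher in 5 of 6 by TPM and SRSF6 in all 6 by coverage. SRSF11, which takes part in the inclusion of neuronal microexons, had 85.4, 147 and 88.1 TPM in the females and 86.5, 80.5 and 134 TPM in the males, with female 3 and male 5 far above the others. SRSF10, which represses splicing after heat shock, had a mean of 45.4 TPM, and SRSF7, which also works in mRNA export, 35.6 TPM.

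Among the RBM genes, RBM22, a protein of the active spliceosome (chromosome 18, 37087413 to 37146716, minus strand), led by TPM, with 148, 169.5 and 113 TPM in the females and 158, 115 and 160.2 TPM in the males. RBM4B, a regulator of alternative exons, had a mean of 112 TPM and exceeded RBM18 (71.95 TPM), the next in the order, in all 6 libraries. By coverage this order turned, with RBM18 at 73.4 to 107, above RBM22 at 44.6 to 67.7 and RBM4B at 20.3 to 26.5 in all 6 libraries. At the lower end stood RBM20, known for splicing titin in the heart, with 0.612 to 1.72 TPM, and RBM43 with 0.142 to 1.09 TPM. RBM24, best known from muscle, was at 12.5 TPM and had 13.3, 11.3 and 6.97 TPM in the females and 12, 14.2 and 17.1 TPM in the males. However, RBM24 overlapped an opposite-strand locus of 16.9 TPM, above its own mean, which leaves its level uncertain. RBM11, described from brain and testis, had a mean of 13.7 TPM.

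Not every TPM rested on an equal depth of reads. For each locus, the TPM per unit of coverage was divided by the median of that ratio over the library's loci without strand, so that 1 stands for the TPM that such a locus has at equal depth. Of the 42 members, 23 had a median below 1.5, among them HNRNPUL2 at 1.01 and RBM18 at 1, and 4 had a median above 5. These 4, singled out after their values were seen, were RBM44 (23.4), RBM4B (6.43), HNRNPDL (6.43) and RBM38 (6.01). The mean of 51.5 TPM for RBM44, a gene known from germ cells, thus stood on a coverage of 2.22 to 4.06, and that of RBM38 on a coverage of 0.407 to 1.52. RBM10, with a coverage of 51.7 to 93.2, had a ratio of 1.30 to 1.39.

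RBM10 was set beside its relatives. It regulates alternative exons, RBM5 and RBM6 are its paralogs and neighbours of each other on chromosome 23, and in this genome RBM10 lies on the X chromosome (36366432 to 36392683, plus strand), as it does in humans. RBM10 had 78.4, 76.8 and 81.2 TPM in the females and 58.8, 80.8 and 54.2 TPM in the males. Males 1 and 5 stood below the females, and male 4 lay within their range. RBM5 (chromosome 23, 24502070 to 24538861, plus strand) had 59.5, 67.2 and 68.6 TPM in the females and 64.6, 66.3 and 53.6 TPM in the males. RBM6 (chromosome 23, 24397286 to 24496257, plus strand) had 32.1, 34.3 and 26.7 TPM in the females and 30.6, 27.8 and 22.1 TPM in the males. For both paralogs the sexes overlapped, with male 5 lowest. RBM10 was the fourth RBM gene by mean TPM (71.7), but by coverage it exceeded RBM4B in all 6 libraries and RBM22 in 4 of 6. By TPM it did not differ beyond the spread from RBM18, which it exceeded in 3 of 6 libraries by TPM (1 of 6 by coverage), or from RBM5, which it exceeded in 5 of 6 (3 of 6 by coverage), whereas it stood 2.48-fold above RBM6 and was higher in all 6 by either unit. RBM6, however, overlapped opposite-strand loci that summed to 53.9 TPM, above its own mean of 28.9 TPM, which leaves its level uncertain. RBM41, the other X-linked member and a protein of the minor spliceosome (chromosome X, 83489775 to 83547836, minus strand), had 4.63, 4.90 and 3.41 TPM in the females and 3.36, 3.75 and 5.79 TPM in the males, 16.7-fold below RBM10 by the means. Its highest and lowest values were both in males.

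**Figure D2:**
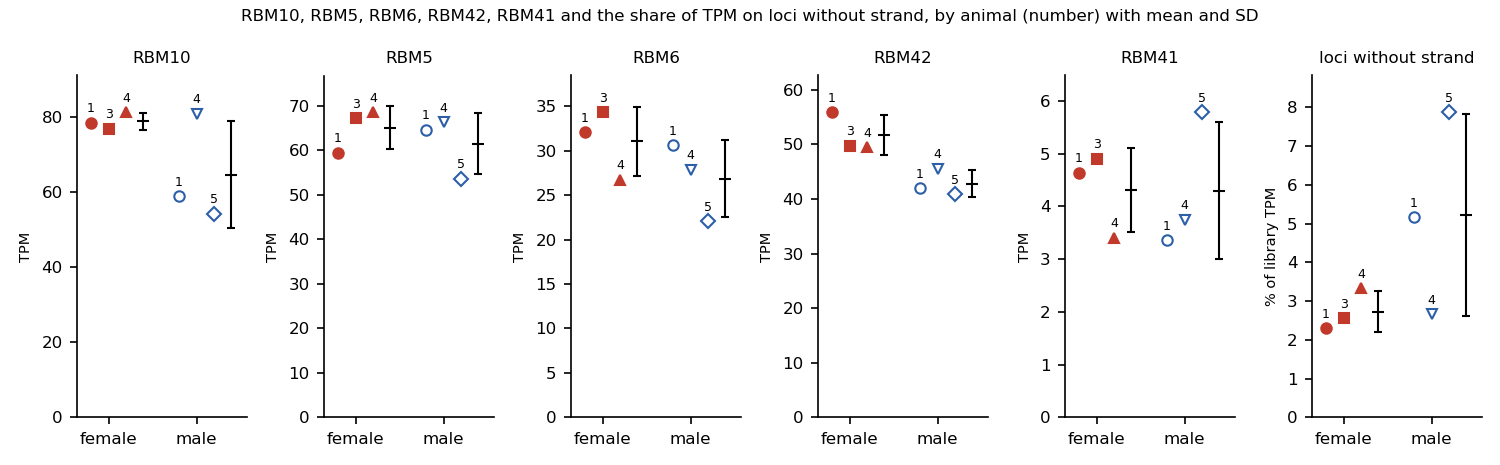
TPM of RBM10, RBM5, RBM6, RBM42 and RBM41, and the share of library TPM on loci without strand (%), in each animal (number beside the symbol), with the mean and SD of 3 animals per sex. RBM10 is near 80 TPM in the females and in male 4 and below 60 TPM in males 1 and 5, which are the animals with the highest share of TPM on loci without strand. The part of that share in the level of RBM10 was not tested.

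The female minus male difference of RBM10 was 0.30 ± 0.19 (SE) in log2(TPM + 1), with a 95% interval from -0.13 to 0.74 and an adjusted p of 0.926 by limma (unadjusted 0.148). The female mean was 78.8 ± 2.25 TPM (SD, n = 3) and the male mean 64.6 ± 14.2 TPM (n = 3). Without male 4 the difference was 0.47, with a 95% interval from 0.09 to 0.86 that left out 0 and an adjusted p of 0.463 by limma (unadjusted 0.0219), and without male 5 it was 0.19. With the share of TPM on loci without strand in the model, the difference was 0.05, with a 95% interval from -0.48 to 0.58. That share was highest in males 1 and 5 and so goes with sex, and its part in the level of RBM10 was not tested. RBM10 is in a list that the study drew from these same animals, so its direction is no independent evidence. The differences of RBM5 (0.08, 95% interval -0.30 to 0.47), RBM6 (0.21, -0.27 to 0.68) and RBM41 (0.02, -0.93 to 0.97) did not pass the test either, those of RBM5 and RBM6 being -0.01 and 0.08 without male 5, and differences of these sizes were not detectable with 3 animals per sex.

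No member was called between the sexes. By limma at an adjusted p under 0.1, 0 of 42 members passed, beside 0.0165% of all loci tested. At an unadjusted limma p under 0.05 the count was also 0, beside 5.03% of all loci. Without the mean-variance trend limma gave 1 member at that level, RBM38, and 0 adjusted calls. The difference was positive, that is higher in females, for 28 of the 42 and negative for 14. These 66.7% positive differences stand beside 46.9% over all loci tested and 56.1% over the named genes. The members had a median of 0.08 beside -0.03 over all loci tested. By family the medians were 0.12 for HNRNP, 0.08 for SRSF and 0.03 for RBM. The 95% interval reached a median of 0.54 to either side of the estimate and 0.34 at its narrowest, so smaller differences could not have been seen. The blood markers called between the sexes went with the same contrast, as did the uncalled but higher sums of the oligodendrocyte and oligodendrocyte precursor markers. The part of these markers in the differences was not tested.

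**Figure D3:**
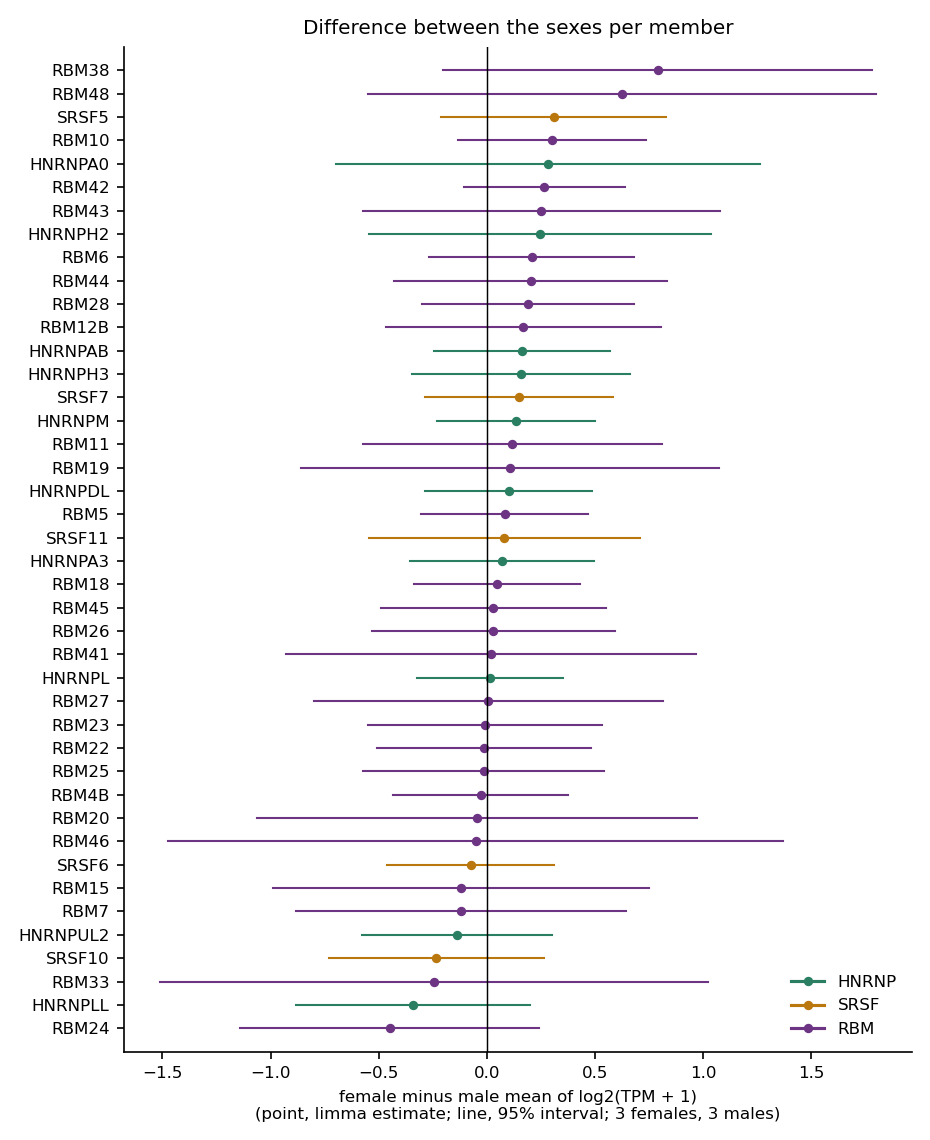
Female minus male difference in log2(TPM + 1) of the 42 members (point) with its 95% interval from limma (line), 3 females and 3 males. Every interval includes 0. RBM46 and RBM33 have the widest intervals and HNRNPL the narrowest.

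The members with the smallest p-values were RBM38, RBM42, RBM10, RBM24, HNRNPLL, SRSF5, RBM48, SRSF10, RBM6 and HNRNPAB. RBM38, which binds and stabilises mRNA of the cell cycle inhibitor p21 (chromosome 9, 52846091 to 52895563, minus strand), had 6.56, 6.46 and 4.78 TPM in the females and 4.67, 2.75 and 1.97 TPM in the males, on a coverage of at most 1.52, and differed by 0.79 ± 0.43 (SE) with an adjusted p of 0.926 by limma. That difference was 0.449 by coverage, 0.505 by FPKM and 0.52 with the animal number as a block. With 0.1 or 0.01 added before the log2 in place of 1, it was 0.974 or 0.998. It was 1.04 without male 1 and 0.578 without male 5. The TPM per depth of RBM38 hardly varied (6.01 to 6.07), and the added 1 weighs more on the smaller coverage and FPKM values. RBM42, a protein of the tri-snRNP (chromosome 21, 29676039 to 29693183, minus strand), had 55.9, 49.8 and 49.5 TPM in the females and 42.0, 45.5 and 40.9 TPM in the males, a difference of 0.27 ± 0.16 with an adjusted p of 0.926. In both genes every female lay above every male. These were the 2 members of 42 whose sexes did not overlap in that direction, where 4.92% of all loci had every female higher, and 0 members had every male higher, against 4.93% of all loci.

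The other members of that set overlapped between the sexes. HNRNPLL, a paralog of HNRNPL known from the splicing of CD45 in lymphocytes, had 40.8, 46.9 and 29.7 TPM in the females and 50.9, 38.9 and 59.6 TPM in the males (difference -0.34 ± 0.24). RBM24 differed by -0.45 ± 0.30, SRSF10 by -0.23 ± 0.22, HNRNPAB by 0.16 ± 0.18 and SRSF5 by 0.31 ± 0.23, where male 1 alone lay outside the range of the females. Each rested in part on 1 library. Without female 4 the difference was -0.16 for HNRNPLL and -0.20 for RBM24, and without male 1 it was -0.10 for SRSF10, 0.04 for HNRNPAB and 0.08 for SRSF5. RBM48, which works in the splicing of minor introns, had 3.85, 2.15 and 3.18 TPM in the females and 2.76, 1.45 and 0.887 TPM in the males. Its difference of 0.63 ± 0.52 had a 95% interval from -0.55 to 1.80, and it was 0.33 by FPKM and 0.40 without male 5. The 1 added before the log2 weighs more on the FPKM values, which are smaller. RBM48li1, a locus with the li suffix and a higher mean of 9.17 TPM, differed in the other direction, by -0.20 ± 0.33.

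The spread over all 6 libraries was small for most members. The SD of log2(TPM + 1) had a median of 0.25 over the 42 members, with 0.19 for HNRNP, 0.27 for SRSF and 0.25 for RBM, beside 0.49 over all loci tested. Since the spread changes with the level, the members were also set beside loci that have a gene name and a strand at the same level. Above 100 TPM the median SD was 0.19 over 10 members and 0.27 over 1541 named genes. From 10 to 100 TPM it was 0.25 over 21 members and 0.31 over 5980 named genes, and from 1 to 10 TPM it was 0.29 over 9 members and 0.43 over 3745, though in this class 4 of the 9 had an SD above 0.5, beside 39.8% of the named genes. Below 1 TPM the 2 members, HNRNPH2 (0.41) and RBM43 (0.34), were above the median of 0.31. These are descriptions and were not tested.

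HNRNPL, which binds CA repeats and regulates exons in many tissues, was the steadiest by TPM. HNRNPL (chromosome 21, 26382040 to 26415689, plus strand) had 73.3, 72.0 and 72.7 TPM in the females and 73.3, 71.7 and 71.0 TPM in the males. Its SD of 0.02 was lower than that of every other named gene of its level class, although by coverage in place of TPM its SD was 0.10 and HNRNPDL had the lower one, at 0.07. HNRNPM (0.13), HNRNPDL (0.13), RBM18 (0.13), SRSF6 (0.13), RBM5 (0.13), RBM45 (0.16) and SRSF7 (0.18) also varied little.

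RBM33, RBM46, HNRNPA0 and RBM19 varied most. RBM33, a protein linked to RNA export and m6A removal, had 7.50, 15.0 and 3.01 TPM in the females and 4.602, 12.4 and 11.1 TPM in the males (SD 0.78). Its coverage varied in a like manner (SD 0.68). HNRNPA0, a single-exon relative of HNRNPA1 in other mammals, had 35.1, 71.5 and 28.4 TPM in the females and 26.4, 23.7 and 62.02 TPM in the males (SD 0.66), with female 3 and male 5 far above the others. By coverage, however, HNRNPA0 ranged only from 30.7 to 38.6 in the females and from 26.5 to 35.9 in the males (SD 0.15 on the log2 scale after scaling between libraries), while its TPM per depth was 2.41 in female 3 and 2.43 in male 5 and at most 1.42 in the others.

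RBM46, a germ cell gene on a locus of 713304 bp that also holds 9 loci without strand, showed the same pattern. It had 2.17, 7.73 and 1.84 TPM in the females and 2.94, 1.83 and 6.84 TPM in the males, an SD of 0.74 that fell to 0.23 by coverage. The coverage of RBM46 was only 0.630 to 1.59, where the 1 added before the log2 understates the spread. Its TPM per depth was 6.17 in female 3 and 8.90 in male 5 and at most 3.48 in the others. RBM19, which works in ribosome synthesis, had 19.6, 13.6 and 10.5 TPM in the females and 6.77, 22.8 and 14.1 TPM in the males, with an SD of 0.58 by TPM and 0.27 by coverage. SRSF11 had an SD of 0.37 by TPM and 0.19 by coverage. For these 4 members the spread thus depended on the unit, in RBM46 partly through the added 1. The part of the transcript assembly in it was not tested.

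Female 3 had the highest TPM of the 6 libraries for 21 of the 42 members, beside 24.7% of the 7521 named genes above 10 TPM, and the lowest for 0 of them, beside 5.88%. Male 4 was the lowest for 13 members (31.0%, beside 14.4% of those named genes) and female 4 for 10 (23.8%, beside 30.3%). Measured from each gene's mean over the animals, the median log2 deviation of the members was 0.18 in female 3, -0.16 in male 4 and -0.11 in female 4, where the named genes above 10 TPM had 0.12, 0.01 and -0.09. Pan-neuronal (7052 TPM, with male 4 lowest at 4863), inhibitory neuron (746 TPM) and blood (2542 TPM) marker sums were also highest in female 3, whereas the excitatory neuron sum was highest in male 4 (3786 TPM, against 3203 TPM in female 3), and their part in this pattern was not tested.

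Over the 6 libraries the other members had no common pattern with RBM10. As a description, with n = 6 libraries that share their depth and composition, Pearson's r of log2(TPM + 1) between RBM10 and the other 41 members had a median of -0.18, was above 0.5 for 5 and below -0.5 for 9. The 5 most alike were HNRNPAB (0.83), RBM42 (0.79), RBM5 (0.67), HNRNPM (0.60) and RBM38 (0.51). The least alike were HNRNPLL (-0.84), SRSF10 (-0.77), RBM25 (-0.64), RBM22 (-0.59) and RBM45 (-0.55). HNRNPAB (94.6, 97.6 and 100.6 TPM in the females, 73.2, 104 and 86.3 TPM in the males) shared with RBM10 that males 1 and 5 were the lowest. RBM6, the second paralog, had an r of 0.50, and the X-linked RBM41 one of -0.34.

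The 11 members that did not pass the filter were 7 HNRNP genes, SRSF12 and 3 RBM genes. Of these, 7 were listed at 0 in every animal, namely HNRNPA1L2, HNRNPCL2, HNRNPH1, HNRNPA2B1, RBM8A, RBM17 and SRSF12. HNRNPA1, HNRNPC, HNRNPU and RBM3 had means of 0.150, 0.0602, 0.0418 and 0.000196 TPM. Several of these are genes that every cell uses. HNRNPA1 and HNRNPA2B1 are among the most abundant nuclear RNA-binding proteins, HNRNPC coats nascent RNA, and RBM8A is a core protein of the exon junction complex. A value of 0 or near 0 is therefore the value of the locus with that name, and says nothing firm about the gene. The loci that did not pass spanned a median of 895 bp, against 43008 bp for those that passed, and 6 of the 11 were shorter than 2000 bp.

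In the same tables, other loci carry names of these families with a "li" suffix and a number. There were 96 such loci for 18 symbols, of which 15 also had a plain-named locus. For 7 of the 11 members that did not pass, a li locus existed, and it carried the reads. HNRNPA1li25 (chromosome 6, 46550404 to 46559235) had 186, 213 and 145 TPM in the females and 156, 193 and 200.1 TPM in the males, where the plain HNRNPA1 locus had at most 0.696 TPM. HNRNPA2B1li12 had 115 to 164 TPM, HNRNPCli11 114 to 157 TPM, HNRNPUli1 67.9 to 143 TPM, RBM3li2 27.0 to 42.4 TPM, RBM8Ali2 20.0 to 27.3 TPM and SRSF12li2 12.4 to 19.7 TPM. HNRNPK and SRSF3, which had no plain-named locus, had 220.1 to 386 TPM on HNRNPKli3 and 37.0 to 62.3 TPM on SRSF3li2. With the li loci added, the mean sum of the HNRNP family rose from 1011 to 2164 TPM, while that of SRSF went from 545 to 607 TPM and that of RBM from 829 to 897 TPM. Family levels given above are therefore those of the plain-named loci alone.

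**Figure D4:**
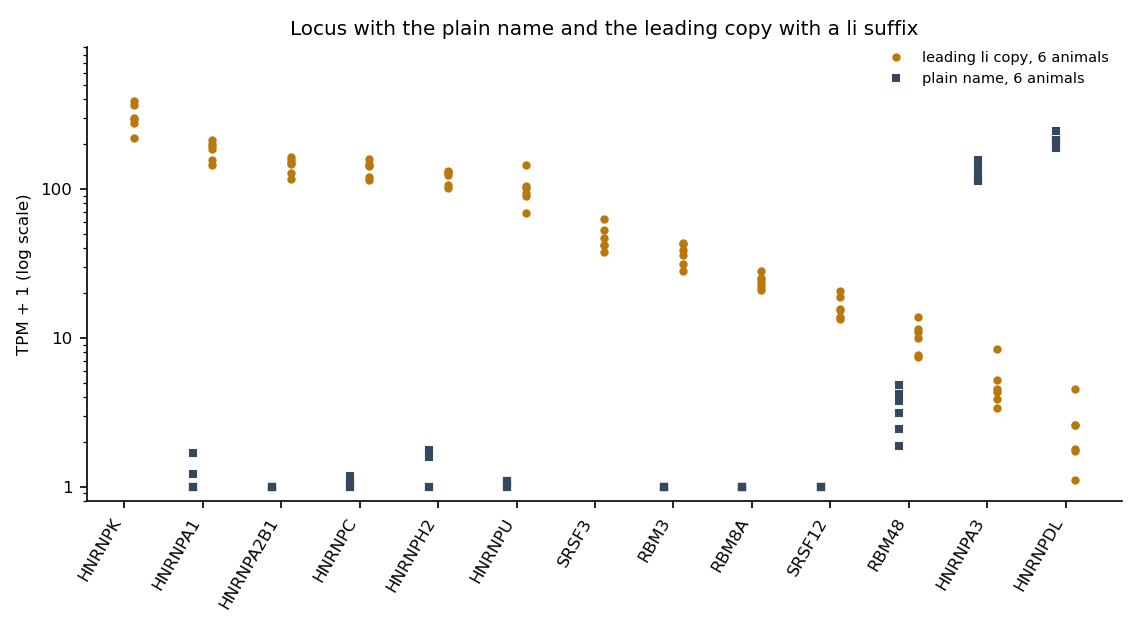
TPM + 1 (log scale) in the 6 animals on the locus with the plain name (dark squares) and on the li locus with the highest mean (orange circles), for the 13 symbols whose leading li locus had a mean above 1 TPM. HNRNPK and SRSF3 have no plain-named locus. For HNRNPA1, HNRNPA2B1, HNRNPC, HNRNPH2, HNRNPU, RBM3, RBM8A and SRSF12 the plain name lies near 0 TPM and the li locus above 10 TPM, and for HNRNPA3 and HNRNPDL the order is the opposite.

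The neighbours of a locus were a further check of its name. In the RefSeq annotation of another tree shrew assembly, TupChi_1.0, the 5 genes on each side were listed for the 49 members with an entry and looked for beside the TS_3.0 locus. Of the 40 members that passed the filter and had an entry, 36 shared at least 2 neighbours, and RBM10 shared 5 of 7. Of the 9 that did not pass, 1 did, HNRNPU, which shared 4 of 10, and its li locus shared 5. HNRNPA1li25 shared 6 of 10 neighbours where the plain HNRNPA1 locus shared 0, HNRNPCli11 shared 8 of 10 against 0, and RBM8Ali2 6 of 10 against 0. Of the members that passed, HNRNPH3, HNRNPH2 and RBM48 shared 0 and HNRNPA0 shared 1. For RBM48, the li locus shared 4 of 9 neighbours and had the higher level, with a mean of 9.17 TPM against 2.38 TPM. RBM17, listed at 0 on a locus of 52871 bp, shared 0 of 10 and had no li locus.

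The sexes of these li loci did not differ by the test either. Of the 96, 33 entered it, 0 were called at an adjusted p under 0.1 by limma and 1 had an unadjusted p under 0.05. RBM3li2, the X-linked locus of a cold-inducible RNA-binding protein, had 41.7, 42.4 and 38.2 TPM in the females and 27.0, 34.8 and 30.2 TPM in the males, with every female above every male. Its difference was 0.41 ± 0.18 (SE) with an adjusted p of 0.926 by limma. HNRNPKli3 had 364, 386 and 296 TPM in the females and 279, 220.1 and 299 TPM in the males (0.39 ± 0.20, adjusted p of 0.926 by limma), and its sexes overlapped.

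The library protocol as described names no step that keeps the strand, so loci that overlap on opposite strands cannot be told apart with certainty. Among the 42 members, 24 overlapped a locus of at least 1 TPM on the opposite strand. The summed level of these partners was 219 TPM for HNRNPDL, 128 TPM for RBM25, 78.2 TPM for SRSF10, 76.0 TPM for RBM4B, 69.3 TPM for RBM18 and 53.9 TPM for RBM6. Weaker members also lay below their partners, namely RBM12B (11.4 against 30.3 TPM), RBM24 (12.5 against 16.9 TPM) and RBM15 (5.12 against 16.1 TPM). The same held for RBM46 (3.89 against 12.9 TPM) and HNRNPH2 (0.340 against 13.0 TPM). The values of these members are uncertain to that extent, while RBM10, RBM5 and RBM42 had no such partner.

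None of the genes that work with the members was called between the sexes. Of the core spliceosome list of 47 genes, 29 entered the test, 0 were called and 1, SNRPG, had an unadjusted p under 0.05. The median difference was 0.03 and the median SD 0.26, beside -0.03 and 0.49 over all loci tested. SNRPG, a Sm protein, had 0.574, 0.568 and 0.180 TPM in the females and 6.06, 1.08 and 2.80 TPM in the males, a low level for a core protein, and its difference was -1.42 ± 0.57 (SE) with an adjusted p of 0.926 by limma. SNRNP70 of the U1 snRNP (0.56), SNRPB (0.47), PRPF8 (-0.38) and DHX38 (0.38) were next by p. Their sums over the list, 1678 to 1742 TPM in 5 animals and 1640 TPM in male 5, differed little between animals.

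The 7 kinases and partners of SR proteins that were found, of 10 listed, summed to 328, 354 and 329 TPM in the females and 309, 333 and 339 TPM in the males. The 5 with the smallest p were CLK3 (0.29 ± 0.24), SRPK1 (-0.13 ± 0.19), PRPF4B (-0.13 ± 0.23), CLK2 (0.09 ± 0.17) and SRPK2 (-0.03 ± 0.19), and by limma 0 were called and 0 had an unadjusted p under 0.05. Of 61 other splicing regulators, 41 entered the test, 0 were called and 1, SCAF1, had an unadjusted p under 0.05. SCAF1, which binds the tail of RNA polymerase II, had 129, 121 and 125 TPM in the females and 66.8, 116 and 90.3 TPM in the males, a difference of 0.49 ± 0.21 with an adjusted p of 0.926 by limma. LUC7L (0.51), the neuronal regulator NOVA2 (0.42), NONO (0.67) and SCAF4 (-0.49) followed. In SCAF1 and NOVA2, as in RBM10, males 1 and 5 were the lowest and male 4 was near the females.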

How the data were processed

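Members, gene lists and tests were chosen with earlier results of these data known. Per the labels and the study's methods, the authors mapped the reads to TS_3.0 with HISAT2 2.2.1, then assembled transcripts and measured them with StringTie 2.2.1. The deposited gene tables hold TPM, FPKM (proportional to TPM in each library) and coverage (mean read depth of a locus, not scaled), with no read counts, so a count model was not possible and the counting error is unknown. Rows of the same gene ID and chromosome were summed. The deposited TPM was analysed as log2(TPM + 1), a scale that understates changes of weak genes. Loci that reached 0.1 TPM in no fewer than 3 libraries entered limma 3.58.1 (R 4.3.3, mean-variance trend, no covariate), fitted over all 30238 loci outside the male-only X and chromosome 26 segments, as in the study, with Benjamini-Hochberg adjustment over all of them and a threshold of 0.1. The p-values are two-sided. The script was tested on simulated data. Coverage, scaled by median ratios, was an alternative added after the data were seen.

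Members were named by a rule: RBM10, RBM5 and RBM6, X-linked members, per family the highest, lowest, steadiest and most variable, the 10 smallest p, those most and least like RBM10, and those listed at 0. Python 3.11.15 with pandas 2.3.3 and numpy 2.4.6 was used to read the tables, and matplotlib 3.10.9 to draw. RefSeq names and neighbours came from TupChi_1.0, whose coordinates were not used. No sequences were at hand, so none are shown. The alternatives were other pseudocounts, filters, scalings and units, loci kept apart, a block by animal number, loci without strand left out or their share as covariate, no trend, adjustment within chromosome classes, and each animal left out.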

Additional observations from a re-analysis of the deposited data

Results flagged for a closer look

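Loci without strand, which the comparisons of members do not use, lay inside the spans of 19 members. There were 42 of them, and their summed level was 22.9, 30.4 and 47.8 TPM in females 1, 3 and 4 and 68.5, 40.7 and 158.5 TPM in males 1, 4 and 5. The value of 158.5 TPM in male 5 was singled out as a signal outside the main measurement. Of it, 58.1 TPM lay inside RBM6 and 27.6 TPM inside RBM46, while RBM10 held 4.62 to 8.07 TPM in all 6 animals. What these loci are was not tested.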

How the results depend on the processing

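No member was called under any alternative run, and the largest count at an unadjusted p under 0.05 was 1. The difference of RBM10 stayed positive and without a call, from 0.05 with the share of TPM without strand as a covariate to 0.33 with FPKM, and from 0.19 to 0.47 with an animal left out. With the animal number as a block it was 0.21 (adjusted p of 1.0 by limma), and 0 members were called. Only numbers 1 and 4 occur in both sexes, the deviations of same-numbered animals correlated at -0.00475 and 0.0378, and the numbers were not taken as pairs. With each animal left out, the mean sum ran from 984 to 1030 TPM for HNRNP, 523 to 557 TPM for SRSF and 805 to 839 TPM for RBM, and the median spread of the members from 0.240 to 0.277, while the count of members called stayed at 0.

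Several values moved. With loci without strand left out and each library rescaled to the full TPM total, which the deposited sums do not reach, the sums were 1095 TPM for HNRNP and 897.2 TPM for RBM, so both steps enter the move. In FPKM, another unit, the sums were 255.5, 138 and 209 for HNRNP, SRSF and RBM. With the li loci they were 2164 TPM for HNRNP and 897 TPM for RBM. In the main run 2 members did not overlap between the sexes, where 4.92% of all loci had every female higher and 4.93% every male higher. Such members numbered 4 with FPKM and 1 without the loci lacking strand, settings for which no share over all loci is given here. They numbered 3 to 9 with an animal left out (9 without male 1, 6 without male 4, 8 without female 4, 4 without female 3 and 6 without female 1), where 15.7% to 26.1% of all loci did not overlap. The smaller groups make separation easier. Of 635 values for 32 other named members, 63 in 20 genes changed sign, none of them called. TPM keeps no counts, so counting error could not be given for the members with a coverage under 1 in some animal, of which there were 5.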

Other observations

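In the RefSeq annotation of TupChi_1.0, 62 symbols fit the naming pattern, and 13 of them had no plain-named locus in the tables. SRSF3 was carried by a li locus, and the other 12, among them SRSF1, SRSF4, SRSF9, HNRNPD, HNRNPR and RBM39, had neither, so their levels were not analysed here. HNRNPH2 had its reads on li loci, with a sum of 226 TPM, of which 52.8% was on HNRNPH2li2 on the X chromosome (126, 123.5 and 105 TPM in the females and 130, 100 and 132 TPM in the males). HNRNPDLli4, a locus of 909 bp, had 0.733, 0.793 and 0.108 TPM in the females and 1.58, 1.605 and 3.498 TPM in the males, with every male above every female (difference -1.04 ± 0.49, SE, adjusted p of 0.926 by limma), whereas HNRNPDL itself overlapped between the sexes.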
